A study of Mus musculus with 6 samples.

Results

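Cells that receive a DNA-damaging drug carry both proteins that permit apoptosis and proteins that hold it back, and the genes described here encode the second kind. They are 8 genes, the BCL2-like survival genes Mcl1, Bcl2l1, Bcl2l2 and Bcl2 and the inhibitor of apoptosis (IAP) genes Xiap, Birc2, Birc3 and Birc6. They were taken by gene symbol from a table of 54532 genes measured by RNA-seq in mouse granulosa cells (GCs), the somatic cells that surround and feed the oocyte, and all 8 were among the 14463 genes with enough signal to be tested. Expression was compared between GCs of mice given cyclophosphamide (CTX), an alkylating chemotherapeutic, and GCs of mice given PBS. All mice were ICR females of 3 weeks that had received 5 IU of PMSG, a gonadotropin that drives follicle growth, 22 h before a single intraperitoneal injection of 120 mg/kg CTX or of PBS. GCs were taken 6 h after the injection, giving 3 samples in each group. Each sample pooled GCs from 3 mice, so it hides the differences between its mice, and a single dose and time were measured.

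BCL2-like proteins sit on the outer mitochondrial membrane. There they bind BAX and BAK, which would otherwise form pores, and they are themselves occupied by BH3-only proteins such as PUMA and NOXA when a cell is damaged. MCL1 and its transcript are both known to be short-lived. IAP proteins act further downstream, where XIAP binds caspases directly and the products of Birc2 and Birc3, cIAP1 and cIAP2, are ubiquitin ligases of the TNF receptor complex. In the ovary, GC apoptosis accompanies the loss (atresia) of growing follicles.

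After CTX, Mcl1 was the 1 survival gene of 8 that rose, by 1.51-fold, and 0 of 8 fell at the threshold of the test, against 1.40% of all tested genes called higher and 0.360% called lower. The count of 1 went to 0 when any 1 PBS sample or CTX replicate 3 was left out. The Mcl1 rise made up the growth of the summed BCL2-like signal, since the sum of Bcl2l1, Bcl2l2 and Bcl2 was not above its PBS mean in 2 of 3 CTX samples. Bcl2l1 ranged from 5.64 to 17.6 FPKM between CTX samples, and its change could not be told from 0. The IAP genes had CTX means of 0.899 to 0.965 times their PBS means, none of them past the test. Of 13 tested genes in the lists of effectors and of BH3-only and related genes, 3 rose, Bbc3 (PUMA), Pmaip1 (NOXA) and Bax. In these lists 0 fell, although Bnip3 and Bmf had log2 fold changes of -0.82 and -0.64 that did not pass the test. The lists were drawn up with results of these data known, so these counts are no independent evidence. Bax lost its call in 5 of 17 alternatives.

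The 3 promoters with a match to a searched motif are shown first, as the stretch of 250 bases before a RefSeq transcription start on GRCm38.p6, read along the gene's own strand. The Mcl1 window is chr3:95658471-95658720 on the plus strand, the Bcl2l1 window is chr2:152830718-152830967 on the minus strand and belongs to 1 of 3 listed starts, and the Birc2 window is chr9:7837058-7837307 on the minus strand and belongs to 1 of 2. Capitals mark a match to the NF-kB motif (GGG, any pair of bases, then TTTCC) in the first 2 windows and to the cAMP response element TGACGTCA in the third, on either strand.
Mcl1: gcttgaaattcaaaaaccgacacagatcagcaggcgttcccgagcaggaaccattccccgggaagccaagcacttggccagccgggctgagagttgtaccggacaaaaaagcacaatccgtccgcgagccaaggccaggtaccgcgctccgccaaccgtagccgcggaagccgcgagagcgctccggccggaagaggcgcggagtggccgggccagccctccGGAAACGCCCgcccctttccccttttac
Bcl2l1: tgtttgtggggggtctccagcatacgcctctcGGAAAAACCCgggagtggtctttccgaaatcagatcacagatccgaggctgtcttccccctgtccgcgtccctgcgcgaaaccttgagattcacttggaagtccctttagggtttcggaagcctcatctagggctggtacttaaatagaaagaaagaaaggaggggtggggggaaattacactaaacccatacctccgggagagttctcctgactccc
Birc2: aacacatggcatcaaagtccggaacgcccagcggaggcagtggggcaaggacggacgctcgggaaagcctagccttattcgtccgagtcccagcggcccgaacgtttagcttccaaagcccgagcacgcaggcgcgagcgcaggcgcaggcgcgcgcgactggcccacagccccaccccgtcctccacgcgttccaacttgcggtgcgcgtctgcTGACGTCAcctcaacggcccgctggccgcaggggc

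The match in the Mcl1 window, GGAAACGCCC, ran from -28 to -19, counting back from -1 as the base before the start. That of Bcl2l1, GGAAAAACCC, ran from -218 to -209, and that of Birc2 from -35 to -28. Among 32851 RefSeq promoter windows of the same length, 1.41% held the NF-kB motif and 1.55% the cAMP response element. None of the 13 windows of the survival genes held the AP-1 motif TGANTCA (6.75% of all windows), the CArG box (1.47%) or the p53 half-site (7.13%). The searched motifs do not overlap each other in these windows, and a match is a description of the letters, since no factor binding was measured here. The Mcl1 window was rich in G and C (64.4%) with 26 CpG dinucleotides, against a median of 52.4% and 6 over all windows. This was not particular to Mcl1. The windows of Bcl2 (74.8% and 36) and Bcl2l2 (66% and 9) and the Birc2 window shown (68.4% and 31) were richer in G and C. The other windows of the survival genes were less rich, and the Bcl2l1 window shown had 53.2% and 11.

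Read depth was similar in both groups, with 16005869 to 17790353 reads on genes per PBS sample and 17727770 to 18455011 per CTX sample, rebuilt from the deposited FPKM (fragment counts divided by gene length and by depth). Tested were those genes that averaged 0.5 FPKM or more, with limma on log2(FPKM + 0.1), a scale on which the change of low genes is understated, and a gene was called at a Benjamini-Hochberg adjusted p below 0.05 over all 14463 genes. CTX samples differed from each other more than PBS samples did. The share of tested genes more than 2-fold away from the mean of the other two replicates was 2.89% to 3.05% in PBS samples, and 8.12%, 9.98% and 4.27% in CTX replicates 1, 2 and 3. The GC label was checked against 10 GC markers, all detected, whose summed FPKM was 12580 to 13820 in PBS and 10794 to 11600 in CTX samples, with none called, while in 6 of the 10 each CTX value was below each PBS value (14.1% of all tested genes) and in 1, Amh, above (15.0%). Markers of other cells were also present: summed immune markers reached 17.7 to 20.3 FPKM in PBS and 31.6, 60.2 and 22.5 in CTX replicates 1, 2 and 3, and 1 of 4 tested, Cd14, rose. Summed FPKM in PBS and CTX was 52.0 to 53.6 and 14.8 to 65.9 for theca and stroma, 4.57 to 5.52 and 1.8 to 4.21 for endothelium, 36.3 to 77.6 and 50.5 to 89.8 for oocyte, and 319 to 454 and 138 to 497 for erythroid markers, and no marker of these lists was at 0 in all samples. In such bulk samples, fewer cells of a type and less RNA per cell cannot be told apart, and the part of these other cells in the results below was not tested.

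In PBS samples the survival genes spanned about 2 orders of magnitude in FPKM, a level per length of gene. Mcl1 stood highest at 55.3 ± 1.08 FPKM (SD, n = 3), above 93.6% of all tested genes, and Bcl2l1 followed at 16.1 ± 1.73. Birc2 (13.7 ± 0.710) and Bcl2l2 (13.0 ± 0.400) overlapped in their ranges, while Xiap (10.9 ± 0.931), Birc6 (4.62 ± 0.487) and Birc3 (2.79 ± 0.362) each lay below the gene before. Bcl2, the gene that gives the family its name, was lowest at 0.521 ± 0.0597 FPKM, above only 2.21% of tested genes. In CTX samples Mcl1 was still apart from all others, and the ranges of Bcl2l1 and Birc2, of Birc2 and Bcl2l2, and of Bcl2l2 and Xiap overlapped.

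**Figure D1:**
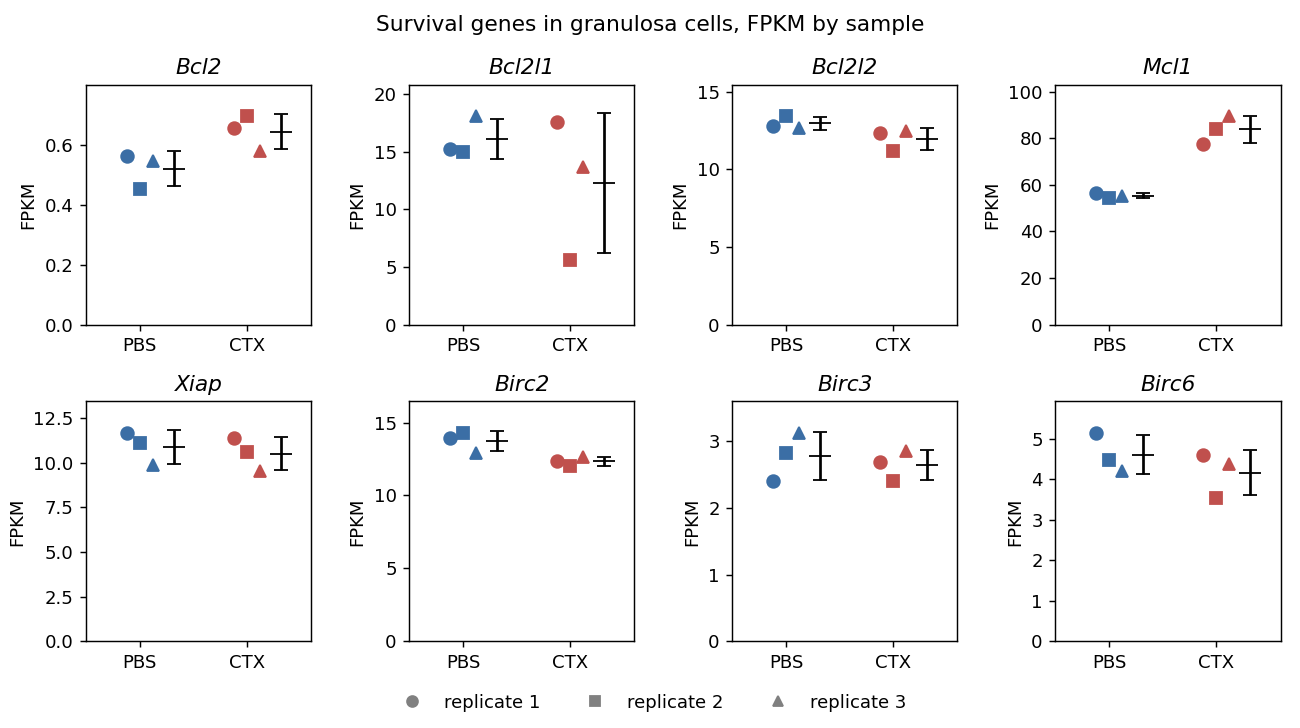
FPKM (vertical axes, each from 0) of the 8 survival genes in 3 PBS and 3 CTX samples of GCs, with a symbol for each replicate number and the mean ± SD in black at the right of each group. The groups lie apart with CTX higher for Mcl1 and Bcl2 and with CTX lower for Bcl2l2 and Birc2, and Bcl2l1 is at 5.64 FPKM in CTX replicate 2 against 13.6 to 18.1 in the other samples.

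Mcl1 (ENSMUSG00000038612, chr3:95658788-95663176, plus strand) encodes a survival protein known for its rapid turnover. Its level was 56.4, 54.2 and 55.4 FPKM in PBS replicates 1, 2 and 3 and 77.7, 84.1 and 89.4 FPKM in CTX replicates 1, 2 and 3. All 3 CTX values were above all 3 PBS values, and PBS samples were within 3 FPKM of each other. The log2 fold change was 0.59 ± 0.07 (SE), with a 95% interval of 0.42 to 0.77, which is 1.51-fold (1.34 to 1.70), at an adjusted p of 0.0174 by limma. Of all tested genes 1.40% were called higher and 0.360% lower, against 1 and 0 of the 8 survival genes, and 5.97% of tested genes had a larger log2 fold change than Mcl1. With the further condition of a change above 2-fold, which the study used for differentially expressed genes, 0.802% of genes were called higher and 0.159% lower and none of the 8 survival genes was. An exact two-sided permutation test of Mcl1 gave p = 0.1, the smallest that 3 against 3 samples allow. The call rested on all samples but CTX replicates 1 and 2: without PBS replicate 1, 2 or 3 or CTX replicate 3, the adjusted p by limma was 0.0961, 0.114, 0.0945 and 0.0751, with the log2 fold change between 0.55 and 0.61. The values rest on 3065 to 5475 reads per sample, and none of the 3412 stretches of 50 bases in Mcl1 transcripts occurs in another gene. The annotation lists 2 transcripts of Mcl1, both protein-coding, which a value per gene does not separate.

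Groups that do not overlap were common in these data, with CTX wholly above PBS in 15.0% and wholly below in 14.1% of tested genes. Among the 8 survival genes this held for 2 above, Mcl1 and Bcl2, and for 2 below, Bcl2l2 and Birc2. The median log2 fold change of the 8 was -0.09, against -0.01 over all tested genes, with 0.07 for the 4 BCL2-like and -0.10 for the 4 IAP genes.

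Bcl2l1 (ENSMUSG00000007659, chr2:152780668-152831728, minus strand) encodes BCL-XL, which binds BAX and BAK as MCL1 does. It was at 15.2, 14.9 and 18.1 FPKM in PBS samples and at 17.6, 5.64 and 13.6 FPKM in CTX replicates 1, 2 and 3. CTX replicate 1 lay within the PBS range and the other CTX samples below it, so the groups overlapped. The log2 fold change was -0.53 ± 0.40 (SE, 95% interval -1.50 to 0.43), at an adjusted p of 0.477 by limma. The interval holds both a fall to 0.355 and a rise to 1.35 times the PBS level. Without CTX replicate 2 the log2 fold change was -0.05 (adjusted p = 0.871 by limma). The 459 reads of that sample, against 1120 to 1459 in the others, carry a counting error of 4.67%. No stretch of 50 bases in Bcl2l1 transcripts occurs in another gene, and 9 transcripts are listed for it, which were not separated.

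CTX replicate 2 stood apart more widely. In that sample 560 tested genes (3.87%) were more than 2-fold below each of the other 5 samples, Bcl2l1 among them. It had the lowest value of the 6 samples for 5 of the 8 survival genes (Bcl2l1, Bcl2l2, Birc2, Birc3 and Birc6) and for 28.2% of all tested genes, and the highest for 1 of the 8 (Bcl2) and for 29.9% of all. For Birc3 this was 2.40798 FPKM, barely below the 2.40845 FPKM of PBS replicate 1. These counts were made for CTX replicate 2 alone. The coefficient of variation of Bcl2l1 in CTX samples was 49.5%, higher than that of 90.1% of tested genes, whereas in PBS samples it was 10.8%, higher than that of 67.4%. The same sample held the highest sum of immune markers and the lowest of theca, endothelial and erythroid markers. Lyz2 alone gave 45.8 of the 60.2 FPKM of its immune sum, and not every marker followed the sum of its list. In CTX replicate 2 the immune marker Itgam was lowest (0.0561 FPKM) and the theca marker Ptch1 highest (6.55 FPKM). The erythroid marker Alas2 (6.94 FPKM) was within the range of the other samples. Of the 10 GC markers 7 were lowest there and 2, Amh and Amhr2, highest. Cyp19a1 (aromatase) was at 6.61 FPKM in that sample against 32.5 to 62.4 in the others and Inhba, an activin subunit gene, at 211 against 487 to 902, which the GC sum, mostly Inha, does not show. The part of these markers in the Bcl2l1 value was not tested.

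Bcl2l2 (ENSMUSG00000089682, chr14:54883377-54888234, plus strand) encodes BCL-W, a close relative of BCL-XL. It measured 12.8, 13.4 and 12.7 FPKM in PBS and 12.3, 11.2 and 12.5 FPKM in CTX samples. All CTX values were lower, by 0.11 ± 0.07 (SE) on the log2 scale (95% interval of the change -0.29 to 0.06), which did not pass the test (adjusted p = 0.404 by limma). Of its transcripts' 50-base stretches, 12.1% also belong to Gm20521, a gene annotated over it on the same strand, for which at most 1 read was listed in any sample.

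Bcl2 (ENSMUSG00000057329, chr1:106538178-106714274, minus strand) was weakly expressed. Its FPKM was 0.564, 0.453 and 0.546 in PBS and 0.657, 0.696 and 0.579 in CTX samples, from 92, 76 and 81 and from 109, 113 and 95 reads. CTX values were all higher, but the lowest CTX and highest PBS value differed by less than the counting error of up to 11.5% per sample. The log2 fold change was 0.26 ± 0.26 (SE, 95% interval -0.36 to 0.88), at an adjusted p of 0.581 by limma. The genes that overlap Bcl2, namely Gm37053, Mir3473f and, on the other strand, D630008O14Rik, held at most 1 read.

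None of the 4 IAP genes passed the test. Xiap (ENSMUSG00000025860, chrX:42059679-42109656, plus strand), the direct caspase inhibitor, was at 11.7, 11.1 and 9.86 FPKM in PBS and 11.4, 10.6 and 9.52 FPKM in CTX samples. Its groups overlapped almost fully, and the log2 fold change was -0.05 ± 0.10 (SE, 95% interval -0.29 to 0.19). Birc2 (ENSMUSG00000057367, chr9:7818227-7837064, minus strand), which encodes cIAP1, was at 14.0, 14.3 and 12.9 FPKM in PBS and 12.4, 12 and 12.6 FPKM in CTX samples. Here all CTX values were lower, by 0.15 ± 0.07 (SE) on the log2 scale (95% interval of the change -0.32 to 0.01), and the adjusted p was 0.278 by limma.

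Birc3 (ENSMUSG00000032000, chr9:7848699-7873186, minus strand) lies beside Birc2 on the same strand and encodes cIAP2, a known NF-kB target. It was at 2.41, 2.82 and 3.13 FPKM in PBS and 2.70, 2.41 and 2.85 FPKM in CTX samples, with a log2 fold change of -0.06 ± 0.13 (SE, 95% interval -0.39 to 0.26). Birc6 (ENSMUSG00000024073, chr17:74528295-74703356, plus strand) encodes a giant ubiquitin ligase with a BIR domain. It was at 5.16, 4.48 and 4.21 FPKM in PBS and 4.60, 3.54 and 4.38 FPKM in CTX samples, with a log2 fold change of -0.15 ± 0.13 (SE, 95% interval -0.47 to 0.18). Both genes overlapped between groups, and adjusted p-values by limma were 0.792 for Xiap, 0.807 for Birc3 and 0.556 for Birc6. The intervals of the 4 genes leave room for rises of up to 1.2-fold (Birc3) and for falls to 0.722 of the PBS level (Birc6). Birc3 shared 7.56% of its 50-base stretches with other genes, mostly Gm7019 and Birc2, and Birc2 shared 1.49%, so a small part of their reads could be split between them. Birc6 is overlapped on the other strand by Gm26749, with at most 2 reads in any sample, and the library kit did not mark strand.

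**Figure D2:**
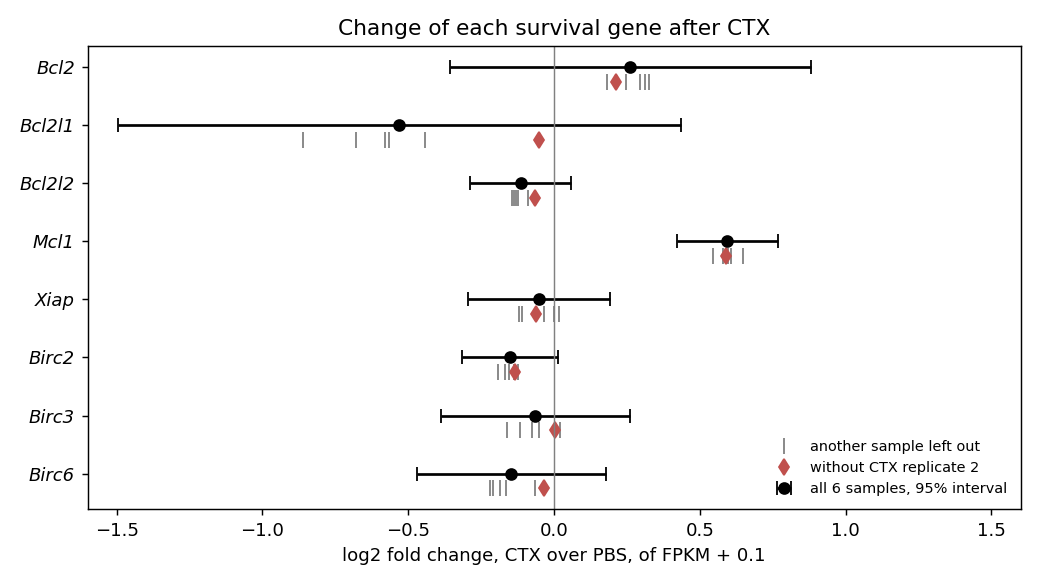
Log2 fold change of CTX over PBS (horizontal axis, log2(FPKM + 0.1) scale) of each survival gene, with black points and bars for limma's estimate and 95% interval from all 6 samples, grey ticks for estimates with another sample left out and red diamonds for those without CTX replicate 2. The interval of Mcl1, 0.42 to 0.77, is the one that does not reach 0, and the estimate of Bcl2l1 goes from -0.53 to -0.05 without CTX replicate 2.

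How the BCL2-like transcripts were divided within a sample was also compared, which does not depend on the scaling between samples. Mcl1 made up 66.4, 65.3 and 63.9% of the summed FPKM of the 4 genes in PBS samples and 71.8, 82.8 and 77.0% in CTX replicates 1, 2 and 3. Its share was higher in each CTX than in each PBS sample, by 12 percentage points on average (65.2 ± 1.24 to 77.2 ± 5.50%, SD, n = 3). Without CTX replicate 2, where Bcl2l1 was low, the difference was 9.23 points. The share of Bcl2l1 was 18.9 ± 1.68% in PBS and 11.2 ± 5.36% in CTX samples, that of Bcl2l2 was 15.3 ± 0.790% and 11 ± 0.329%, and Bcl2 stayed under 1% in every sample. The sum of all 4 was 84.9 ± 1.8 FPKM in PBS and 109 ± 7.24 FPKM in CTX samples, 1.28 times as much. Without Mcl1 the sum was 29.6 ± 1.5 FPKM in PBS samples and 30.5, 17.5 and 26.7 FPKM in CTX replicates 1, 2 and 3. The summed IAP genes were at 32 ± 1.65 and 29.7 ± 1.26 FPKM.

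**Figure D3:**
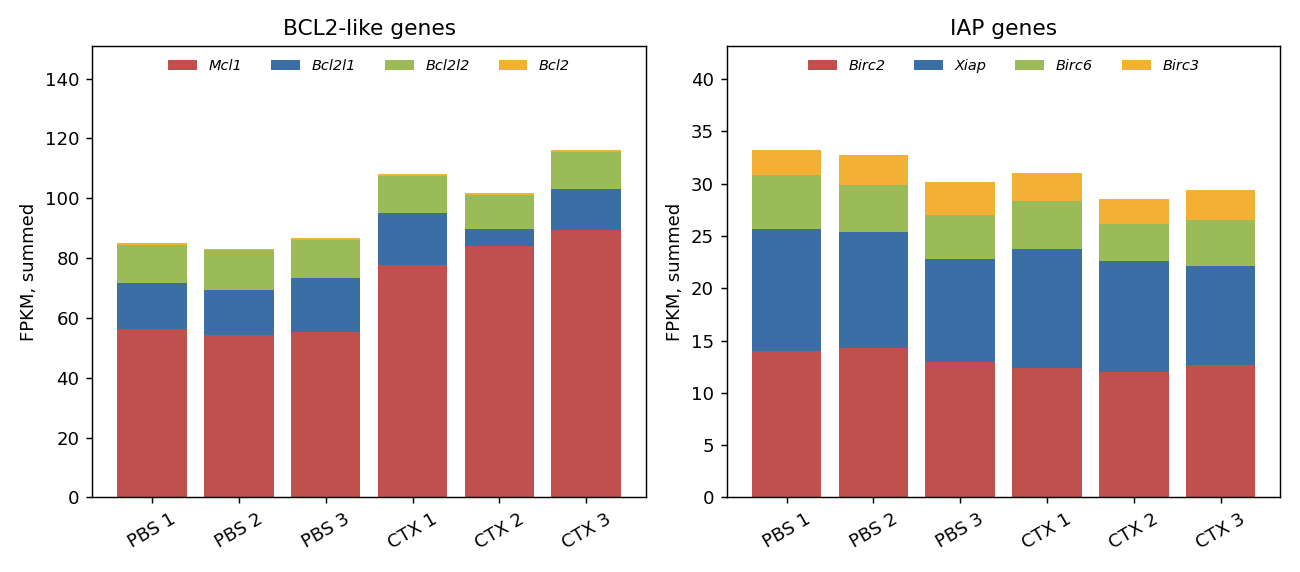
Summed FPKM (vertical axes, from 0) of the 4 BCL2-like genes (left) and the 4 IAP genes (right) in each of the 6 samples, stacked by gene. The Mcl1 segment is 54.2 to 56.4 FPKM high in PBS and 77.7 to 89.4 FPKM in CTX samples, while the IAP sums stay between 28.6 and 33.2 FPKM.

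Within samples, the log2 difference between Mcl1 and each of the other 7 survival genes was larger in every CTX than in every PBS sample. The mean increase ran from 0.33 against Bcl2 to 1.13 against Bcl2l1, with 0.71 against Bcl2l2, 0.65 against Xiap, 0.75 against Birc2, 0.66 against Birc3 and 0.74 against Birc6. An exact two-sided permutation test gave p = 0.1 for each of the 7, the smallest possible here, and the 7 differences share the Mcl1 values. They were computed for Mcl1 alone, the gene that rose, so they are no separate evidence of its rise. Mcl1 exceeded Bcl2l1 by 3.46 ± 0.350 times in PBS samples and by 4.42, 14.9 and 6.56 times in CTX replicates 1, 2 and 3.

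The genes that these proteins act on or are controlled by were followed in 7 lists of partners, with 50 names, 49 of them found and 37 tested. Of the 37, 5 (13.5%) rose and 0 fell, against 1.40% and 0.360% of all tested genes. Median log2 fold changes were 0.15 for effectors, -0.03 for BH3-only and related genes, 0.21 for IAP antagonists, 0.02 for the TRAF and TNF receptor list and 0.06 for MCL1 turnover, against -0.01 over all tested genes. The lists were drawn up with results of these data known, so the count is no independent evidence of a direction. The count of 0 falls by limma was also 0 with voom on the rebuilt reads, and 1 partner, Bnip3, was lower at an unadjusted p below 0.05. For the survival genes the falls numbered 0 by both and at an unadjusted p below 0.05.

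Among 3 effector genes 1 rose. Bax, which forms the pores that BCL2-like proteins prevent, was at 29.6, 34.1 and 37.0 FPKM in PBS and 58.7, 54.4 and 63.9 FPKM in CTX samples. The log2 fold change was 0.81 ± 0.11 (SE), with an adjusted p of 0.0211 by limma, and it exceeded 0.05 without any 1 of the PBS samples or CTX replicate 3 (0.0607 to 0.114). Bok, the most abundant of the list, was at 66.8 ± 3.98 and 75.2 ± 15.3 FPKM, with an adjusted p of 0.571.

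Of 10 tested genes in the list of BH3-only and related genes, 2 rose, and they had the largest changes of all partners. Pmaip1 encodes NOXA, which binds MCL1 and promotes its degradation. It was at 0.127, 0.124 and 0.117 FPKM (5 or 6 reads) in PBS and at 3.98, 2.75 and 3.69 FPKM in CTX samples, with a log2 fold change of 3.99 ± 0.23 (SE, adjusted p = 1.2e-03 by limma). The PBS level is close to the 0.1 FPKM added before the log, so the size of this change depends on it. With 1 added it was 1.98 and with 0.01 added 4.70, a range that the SE does not cover. Bbc3 encodes PUMA, which binds all BCL2-like proteins. It was at 2.77, 2.77 and 2.12 FPKM in PBS and at 20.2, 14.8 and 22.3 FPKM in CTX samples, a log2 fold change of 2.84 ± 0.18 (SE, adjusted p = 1.5e-03 by limma). The most abundant genes of the list did not pass the test: the mitophagy receptor genes Bnip3 (76.6 ± 4.51 and 45.7 ± 17.5 FPKM, adjusted p = 0.208) and Bnip3l (39.6 ± 1.18 and 39.1 ± 1.19 FPKM, adjusted p = 0.867).

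Set against these opponents, Mcl1 was 22 ± 3.57 times as high as Bbc3 in PBS and 4.52 ± 1.02 times in CTX samples. Mcl1 over Pmaip1 went from 452 ± 19.6 to 24.8 ± 5.58, the PBS value resting on few Pmaip1 reads. Mcl1 over Bax was 1.66 ± 0.213 in PBS and 1.42 ± 0.114 in CTX samples, with overlapping ranges. Bcl2l1 over Bax was 0.514, 0.439 and 0.488 in PBS and 0.299, 0.104 and 0.213 in CTX samples, so it was lower in each CTX sample, also in CTX replicate 1, where Bcl2l1 itself was within the PBS range. These are ratios of transcript levels per length and do not measure protein.

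None of the 4 tested IAP antagonists, whose products displace IAP proteins from caspases or promote their loss, was called. Htra2 was at 12.3 ± 0.528 and 12.5 ± 1.64 FPKM (adjusted p = 0.939), and Sept4, which has an isoform named ARTS and was matched by identifier because its symbol is stored as a date, at 5.17 ± 0.0392 and 7.23 ± 1.21 FPKM (adjusted p = 0.151).

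The TRAF and TNF receptor list, in which cIAP1 and cIAP2 work, had 2 of 13 tested genes higher. Nfkbia, which encodes the NF-kB inhibitor IkBα, went from 33.1, 31.8 and 33.8 to 89.0, 83.8 and 74.3 FPKM, which is 1.32 ± 0.08 on the log2 scale (SE, adjusted p = 1.4e-03 by limma). Tnfaip3 encodes A20, a ubiquitin-editing inhibitor of NF-kB, and was at 0.948 ± 0.106 in PBS and 2.63 ± 0.132 FPKM in CTX samples, a log2 fold change of 1.38 ± 0.14 (SE, adjusted p = 8.0e-03 by limma). Its adjusted p was 0.0583 without PBS replicate 3 and 0.0628 without CTX replicate 3. Rela, an NF-kB subunit, was at 31.4 ± 0.853 and 40.3 ± 1.66 FPKM, just outside the test (adjusted p = 0.0502). Nfkbia and Tnfaip3 are, like Birc3, known targets of NF-kB. Birc3 was not called, with its log2 fold change of -0.06. Neither were the other NF-kB subunit genes of the list, Nfkb2 (0.02), Nfkb1 (0.28) and Relb (0.34). A part of NF-kB in these values was not tested.

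Apart from Pmaip1, none of the 6 genes of the MCL1 turnover list was called. Huwe1, a ubiquitin ligase for MCL1, was at 16.0 ± 1.99 and 15.3 ± 0.175 FPKM (adjusted p = 0.740), and Stub1, another ligase gene, at 34.7 ± 2.54 and 34.2 ± 1.62 FPKM (adjusted p = 0.901). Of the other BCL2-like survival genes 1 of 4 could be tested, Bcl2l10, known for its expression in oocytes, at 12.7 ± 4.31 and 12.5 ± 3.19 FPKM (adjusted p = 0.995). Bcl2a1d, next in level, averaged 0.237 FPKM. Of the other BIR-domain genes 1 of 6 could be tested, the mitotic gene Birc5 (survivin), at 21 ± 1.78 and 17.2 ± 3.99 FPKM (adjusted p = 0.375), while Naip1 averaged 0.0527 FPKM.

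**Figure D4:**
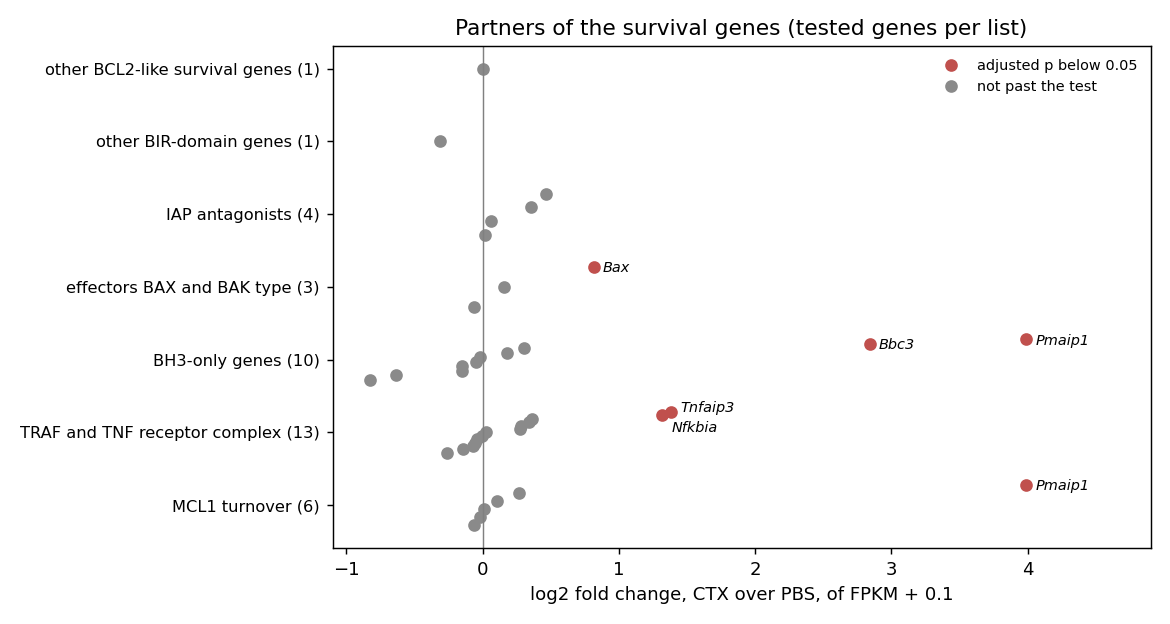
Log2 fold change of CTX over PBS (horizontal axis, log2(FPKM + 0.1) scale) of each tested gene in the 7 partner lists, with the number of tested genes in brackets and red for an adjusted p below 0.05 by limma. The called genes are Bax, Bbc3, Pmaip1 (in 2 lists), Nfkbia and Tnfaip3, all higher after CTX, from 0.81 for Bax to 3.99 for Pmaip1.

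The genes whose pattern over the 6 samples was most like that of Mcl1, by the root mean square difference of centred log2 values, were Mex3d (0.0403), Zfp655 (0.0442) and Dnajb9 (0.0464), all 3 called higher with log2 fold changes of 0.56 to 0.57. For Bcl2 they were Bcas3 (0.0368), Stim1 and Anxa4, for Bcl2l2 Ppp1r37 (0.0156), Pi4k2b and Ints11, and for Birc2 Ankrd49 (0.0123), Scrib and Stx2, none of them called. Chosen after its values were seen, the pattern of Bcl2l1 was nearest to Tmem37 (0.0743), Rasd1 and C1rl. Tmem37 measured 4.46, 1.42 and 3.19 FPKM in CTX replicates 1, 2 and 3. All genes named in this paragraph as most alike were picked for matching a survival gene over the 6 samples. The rises of those like Mcl1 and the low CTX replicate 2 of Tmem37 therefore follow from the choice and are no separate evidence.

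The survival genes also differed in a sequence feature that the choice of genes did not use, the ATTTA pentamer found in the AU-rich elements of short-lived transcripts. It was counted in the 3′ UTR of each gene's longest protein-coding transcript, after the values had been seen. Mcl1 had 8 copies, more than 89.0% of 11453 tested genes, against 1 in Bcl2l1 and 2 in Bcl2l2. The Mcl1 density of 3.40 per kb was above that of 84.2% of those genes. Bcl2 had 15 (more than 97.7% of genes), Xiap 16 (more than 98.1%), Birc3 7, Birc6 6 and Birc2 1. The median over the tested genes was 2 per gene (1.37 per kb). Copies were about as dense in Xiap (3.42 per kb) and denser in Birc3 and Birc6 (4.58 and 6.15 per kb), which did not pass the test, as in Mcl1, which did.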

How the data were processed

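Samples were grouped from their labels into 3 PBS and 3 CTX samples. The authors deposited FPKM values for 54532 genes, and the submitters' processing notes name CASAVA 1.8, fastp, HISAT2 2.0.5, featureCounts 1.5.0-p3, DESeq2 1.20.0 and the build mm10. The table's columns of group means, fold changes and p-values are the authors' own comparison and were not used. FPKM times gene length gave whole multiples of 1 read (within 0.01) for 100% of values, from which reads were rebuilt. Intervals from reads cover counting error only. The table's coordinates matched GENCODE M21 (GRCm38) for all 8 survival genes.

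The 14463 genes averaging 0.5 FPKM or more were compared as log2(FPKM + 0.1) with limma 3.58.1 (lmFit, eBayes with trend) in R 4.3.3, without a replicate term, over all 6 samples. The fit was tested on simulated data. Python 3.11.15, pandas 2.3.3, NumPy 2.4.6 and matplotlib 3.10.9 served for tables and figures. Promoter sequences are from RefSeq (GRCm38.p6).

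One further list of partner genes is not reported here. The genes and lists were chosen with earlier results of these data known. Named were the 8 survival genes, partner genes that passed the test, up to 2 of the highest mean FPKM per list, genes that overlap a survival gene, and the 3 genes most like each survival gene whose groups do not overlap. Outside these rules, Bmf, Nfkb1, Nfkb2, Relb, some marker genes and a gene sharing sequence with Birc3 were also named. The 3′ UTR count and the genes most like Bcl2l1 were added after values were seen. The labels do not tie same-numbered samples to shared mice or days. The p-values set the difference between groups against the spread between these pooled samples, not between single mice.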

Additional observations from a re-analysis of the deposited data

How the results depend on the processing

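In 11 alternatives and 6 fits with 1 sample left out, Mcl1 stayed higher (log2 fold change 0.55 to 0.69) and kept its call in 12 of 17, with adjusted p by limma from 9.5e-05 to 0.128. Between 0 and 1 survival genes were called higher with a sample left out, the count being 0 without any 1 PBS sample or without CTX replicate 3. No survival gene changed by more than 2-fold past the test in any of them. To look for pairing, the mean of its group was first subtracted from each tested gene's log2 values. Correlations of these remainders between PBS and CTX samples of the same number were 0.0556, 0.0242 and 0.0058. Between samples of different number they ran from -0.0756 to 0.0593. With 3 samples per group, these values cannot settle whether the numbers pair the samples. With the number as a replicate block, 0 survival genes (Mcl1 adjusted p = 0.128 by limma) and 3 partner genes were called higher. In that fit 53 genes were called in all, against 254 without the block. With arrayWeights, 5753 genes were called, among them 2 survival genes lower (Xiap, log2 fold change -0.20, adjusted p = 0.0351, and Birc2, -0.14, adjusted p = 0.0341, against ranges over all alternatives of 0.0351 to 0.997 and 0.0341 to 0.568), 12 partner genes higher and 7 lower, and the log2 fold change of Birc3 was 0.053. The cause was not tested.

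With a sample left out, 3 to 7 partner genes were called higher, 70 to 528 genes in all, and the log2 fold change of Xiap ran from -0.12 to 0.017 and that of Birc3 from -0.16 to 0.021. Bbc3, Pmaip1 and Nfkbia kept their call in all alternatives that gave them a value, and Bax and Tnfaip3 lost it in 5 and 3. The difference in the share of Bcl2 (-0.0160 percentage points) was 0.0154 from reads in place of FPKM, and -0.0599 to 0.0329 with a sample left out. A mean FPKM of at least 5 left out Bcl2, Birc3 and Birc6. Scaling to library totals moved the median log2 fold change of all genes to -0.04. Bcl2 rests on 76 to 113 reads per sample, which limits its precision.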
